A study of Mus musculus with 3 samples.

Results

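Genes of the integrated stress response and of amino acid supply were followed in nuclei of whole mouse hearts at embryonic day 9.5, by genotype of Ncx1, by cardiomyocyte chamber and by other nucleus class. The list holds 34 genes, all of them among the 27998 gene rows of the count tables. It was chosen by symbol and holds 7 transcription regulators of the stress response, 8 of its feedback and effector genes, 5 amino acid carriers with the heavy chain that 2 of them share, 6 enzymes of asparagine, serine and one-carbon metabolism, and 7 aminoacyl-tRNA synthetases. The list and the thresholds were chosen with earlier results of these data known. Shares and medians of the list set beside those of all genes are therefore descriptions and not an independent check. The groups were hearts of Ncx1-/- embryos, of Ncx1+/- embryos and of Ncx1+/+ (wild-type) embryos. Each group was a pool of 5 frozen hearts and gave 1 single-nucleus library, so a difference between genotypes has no replicate check and no test between them was possible. The sources used here do not give the strain, the form of the mutant allele or the sex of the embryos. Ncx1 is the sodium-calcium exchanger of the cardiomyocyte membrane, encoded by Slc8a1, and embryos without it lack a regular heartbeat and blood flow.

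The integrated stress response starts when 1 of 4 kinases, encoded by Eif2ak1 to Eif2ak4, phosphorylates the translation initiation factor eIF2. General protein synthesis then slows while the mRNA of the transcription factor ATF4 is translated better, so the activity of ATF4 is set largely at the level of its protein and is not read from its mRNA alone. ATF4 pairs with C/EBP proteins at C/EBP-ATF response elements (CARE) and raises genes that bring amino acids into the cell, make serine, glycine and asparagine, and charge tRNAs. Amino acid shortage, unfolded protein in the endoplasmic reticulum, haem shortage and faults of mitochondria are known triggers. Some of the listed genes, Ddit4 and Vldlr among them, are also known targets of the oxygen-sensing HIF factors.

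After filtering, 11232 nuclei of Ncx1-/-, 11266 of Ncx1+/- and 12465 of Ncx1+/+ were kept. Cardiomyocytes gave 7250 nuclei of Ncx1-/-, 6705 of Ncx1+/- and 7137 of Ncx1+/+. Their median depth was 3561 unique molecular identifiers (UMIs) per nucleus in Ncx1-/-, 3324 in Ncx1+/- and 3592 in Ncx1+/+. Values are given as CPM, the UMI counts of a gene scaled to the total of its class. The cardiomyocyte markers summed to 23680 CPM in Ncx1-/-, 23150 in Ncx1+/- and 22008 in Ncx1+/+ cardiomyocytes, whereas endothelial markers summed to 159 CPM in Ncx1-/-, 151 in Ncx1+/- and 148 in Ncx1+/+. Malat1, a nuclear noncoding RNA, took 9.46% of the cardiomyocyte UMIs in Ncx1-/-, 5.94% in Ncx1+/- and 5.80% in Ncx1+/+. With Malat1, mitochondrial, ribosomal protein and haemoglobin counts left out of the totals, the 10 listed genes called in cardiomyocytes were all still called. Between 40 and 57 barcodes were shared by each pair of libraries, and none by all 3.

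A part of the Ncx1+/- cardiomyocytes had Slc8a1 in the Ncx1-/- range. Slc8a1 stood at 1264 CPM in Ncx1-/-, 8524 in Ncx1+/- and 15968 in Ncx1+/+ cardiomyocytes, in the order of the labels, and which exons the mutant allele lacks is not stated. Per nucleus, however, the Ncx1+/- cardiomyocytes reached down into the Ncx1-/- range. In atrial-like nuclei their low values formed a shoulder beside a higher peak, with no clear gap at the cut used here. The low-Slc8a1 and other Ncx1+/- nuclei are thus groups set by that cut. Clusters were split at the 95th percentile of Slc8a1 in their Ncx1-/- nuclei. A split needed at least 50 Ncx1-/- nuclei and under 10% of the Ncx1+/+ nuclei at or below that level. Cluster 3, with 67.8% of its Ncx1+/+ nuclei there, and cluster 16 were left out, so the rule itself keeps the Ncx1+/+ share low. Binomial intervals here and below treat nuclei as independent draws and cover no spread between the hearts of the pool. In the 7 cardiomyocyte clusters split, 1190 of 5775 Ncx1+/- nuclei (20.6%, exact binomial interval 19.6 to 21.7) lay at or below that level, against 3.1% of Ncx1+/+ nuclei. These low-Slc8a1 nuclei stood at 1359 CPM and the other Ncx1+/- nuclei at 10335 CPM. The cut itself sets the low level, and Ncx1+/+ nuclei at or below it stood at 1423 CPM. Among the low-Slc8a1 Ncx1+/- nuclei 77.2% had at least 2 UMIs of Xist, the RNA of the inactive X chromosome, against 29.7% of the other Ncx1+/- nuclei. A UMI of a Y-linked gene was found in 14.9% of them, against 62.3% of the other Ncx1+/- nuclei. Their median depth was 2976 UMIs, against 3642 in the other Ncx1+/- nuclei. The labels do not tie nuclei to hearts, and which hearts these nuclei came from was not tested. Counts that set Ncx1-/- against Ncx1+/- are therefore given with all Ncx1+/- nuclei and, for the listed genes in all cardiomyocytes, in the chambers and in cluster 4, also without the low-Slc8a1 nuclei. The counts in the other clusters and classes and for the pathway lists are with all Ncx1+/- nuclei alone. So are the counts of genes in the order Ncx1-/-, Ncx1+/-, Ncx1+/+.

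The promoters of 6 of the listed genes are shown first, because they carry the sequence elements named above and because 5 of them were called in cardiomyocytes by the rule given below. Asns was 2.09 times its Ncx1+/+ level but short of that rule against Ncx1+/-, and is shown for its well-studied element. Ddit4 and Vldlr stood apart in cardiomyocytes and in endocardial nuclei, and the other 4 were added after their values were seen. Sequences are from RefSeq, build GRCm38.p6, and run 5′ to 3′ on the strand of the gene from 250 bases before the annotated start to 30 bases after it. Capitals mark the CARE core TGATGNAA or its reverse complement in all but Ddit4, where they mark the hypoxia response element core ACGTG or GCGTG. No CARE core overlapped a hypoxia core in these 6 windows.
The window of Trib3 is chr2:152344031-152344310 on the minus strand, with a CARE core that begins at base 15 after the start. Chac1 (chr2:119350992-119351271, plus strand) has one that begins at base -193, and Asns (chr6:7693180-7693459, minus strand) one at base -23. Slc7a11 (chr3:50443584-50443863, minus strand) has 2, at bases -66 and -47. Vldlr (chr19:27216770-27217049, plus strand) is shown at the one of its 2 listed start sites whose window holds a CARE core, at base -200. Ddit4 (chr10:59951741-59952020, minus strand) has none, and its hypoxia cores begin at bases -187 and -115.
Trib3: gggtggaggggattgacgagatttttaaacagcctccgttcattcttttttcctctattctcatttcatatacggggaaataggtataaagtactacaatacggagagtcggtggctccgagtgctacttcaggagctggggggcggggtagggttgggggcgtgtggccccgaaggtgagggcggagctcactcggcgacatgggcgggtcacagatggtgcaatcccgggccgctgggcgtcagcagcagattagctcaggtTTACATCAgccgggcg
Chac1: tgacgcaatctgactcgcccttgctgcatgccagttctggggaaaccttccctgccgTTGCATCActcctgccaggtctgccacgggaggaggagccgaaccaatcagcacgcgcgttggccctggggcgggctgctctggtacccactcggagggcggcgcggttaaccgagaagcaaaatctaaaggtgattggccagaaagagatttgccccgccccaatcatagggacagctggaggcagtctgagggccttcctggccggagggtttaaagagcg
Asns: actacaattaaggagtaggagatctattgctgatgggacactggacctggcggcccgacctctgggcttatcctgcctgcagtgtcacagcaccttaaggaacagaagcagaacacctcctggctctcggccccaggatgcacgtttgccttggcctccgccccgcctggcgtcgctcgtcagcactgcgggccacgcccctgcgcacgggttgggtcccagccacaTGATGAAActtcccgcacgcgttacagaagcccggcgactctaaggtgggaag
Slc7a11: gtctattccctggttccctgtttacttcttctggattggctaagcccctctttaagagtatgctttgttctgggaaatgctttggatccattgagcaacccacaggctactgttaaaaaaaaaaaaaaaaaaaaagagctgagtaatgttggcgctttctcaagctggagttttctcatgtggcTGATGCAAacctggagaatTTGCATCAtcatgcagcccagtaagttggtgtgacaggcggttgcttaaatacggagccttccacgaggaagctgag
Vldlr: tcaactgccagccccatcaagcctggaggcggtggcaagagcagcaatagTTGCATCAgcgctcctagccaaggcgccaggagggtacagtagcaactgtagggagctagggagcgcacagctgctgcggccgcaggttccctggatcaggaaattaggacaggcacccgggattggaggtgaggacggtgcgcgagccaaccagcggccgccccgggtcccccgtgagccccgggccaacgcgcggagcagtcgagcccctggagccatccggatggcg
Ddit4: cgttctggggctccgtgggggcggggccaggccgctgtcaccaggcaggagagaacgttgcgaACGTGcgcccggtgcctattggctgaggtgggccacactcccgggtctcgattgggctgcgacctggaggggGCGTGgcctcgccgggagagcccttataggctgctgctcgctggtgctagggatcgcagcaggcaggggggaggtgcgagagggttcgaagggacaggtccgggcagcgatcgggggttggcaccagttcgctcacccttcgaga

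RefSeq promoter windows were found for 29 of the 34 genes, and not for Eif4ebp1, Nars, Slc7a3, Slc7a5 and Wars. In windows of 300 bases (250 before and 50 after a start), searched on both strands, the CARE core was found for 10 of these 29 genes: Aars, Asns, Atf3, Chac1, Gars, Nupr1, Slc7a11, Tars, Trib3 and Vldlr. Over all 32851 windows 3.97% hold it, and 4.51% of genes have it in at least 1 window. A hypoxia core was found for 24 of the 29 genes, and 43.8% of all windows hold one, as do 46.7% of genes in at least 1 window. A match is a description of the letters and not a measured binding site, and the list holds textbook targets of ATF4, so the excess of cores over all promoters is not a finding of these data.

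In cardiomyocytes the listed genes stood mostly higher in Ncx1-/-. A gene counted as measured where a class gave it 100 counts or more in the 3 libraries together, and as called higher where its CPM in Ncx1-/- was at least 1.5 times that in both other libraries and both 95% exact counting intervals of the ratio excluded 1. Intervals here and below cover counting error only. Of 33 measured genes 10 were called higher and 0 lower, where 3.58% of all 13712 measured genes were called higher and 3% lower. The 10 were the pseudokinase gene Trib3, the glutathione-degrading enzyme gene Chac1, the transcription factor gene Atf5, the mTORC1 inhibitor genes Ddit4 and Sesn2, the transporter genes Slc7a11 and Slc7a3, the enzyme gene Shmt2, the secreted glycoprotein gene Stc2 and the lipoprotein receptor gene Vldlr. The median log2 ratio of the 33 genes was 0.61 against Ncx1+/+ and 0.37 against Ncx1+/-, beside -0.03 and -0.04 over all genes. In 25 of the 33 genes the level was highest in Ncx1-/- and lowest in Ncx1+/+, an order found in 23.7% of all genes. The Ncx1+/- level in that order includes the low-Slc8a1 nuclei. Without the low-Slc8a1 nuclei and in the split clusters, 14 of 33 were called higher, and 0 lower, where 4.52% and 3.16% of all genes were. There the median log2 ratio of the listed genes was 0.47 for Ncx1-/- over the other Ncx1+/- nuclei. For those Ncx1+/- nuclei over Ncx1+/+ it was 0.14. Over all genes these medians were -0.03 and -0.001. The called genes Trib3, Chac1, Slc7a3 and Slc7a11 reached 100 counts only with those of Ncx1-/-, so for them being measured depended on being high there. This can hold for genes in the other classes too. With no count minimum 10 of 34 were called higher, beside 2.66% of all genes, and with at least 300 counts 5 of 28, beside 2.70%. The one gene not measured was Nupr1, a stress-induced chromatin protein gene, with 3 counts in Ncx1-/-, 2 in Ncx1+/- and 0 in Ncx1+/+.

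**Figure D1:**
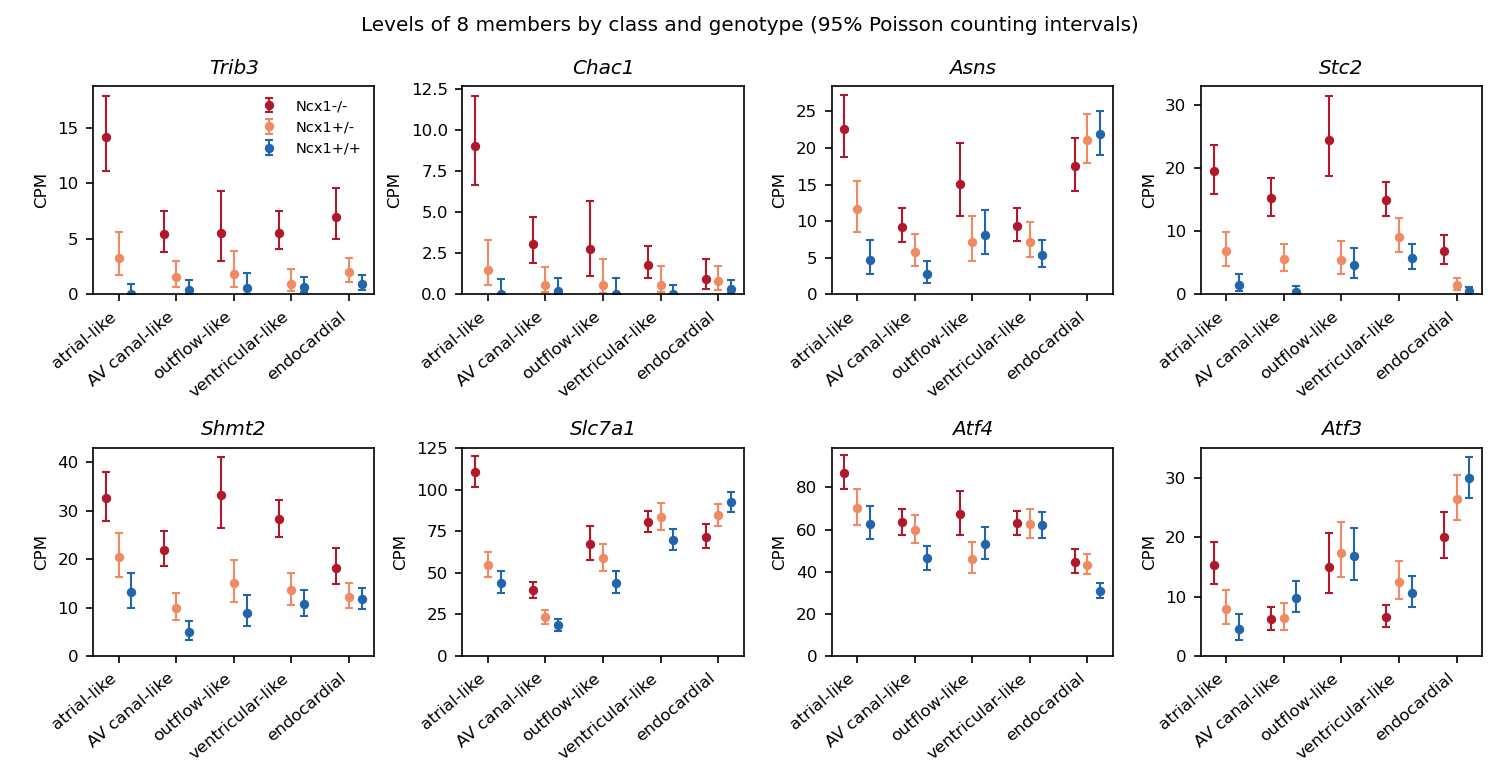
Levels in CPM of 8 genes in 4 cardiomyocyte chamber classes and in endocardial nuclei; points are the Ncx1-/- (red), Ncx1+/- (orange) and Ncx1+/+ (blue) libraries and bars are 95% Poisson counting intervals. Trib3, at 14.2 CPM, and Slc7a1, at 111 CPM, stand out in atrial-like Ncx1-/- nuclei, while the 3 points of Atf4 lie close together in ventricular-like nuclei.

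Of the transcription factor genes, Atf4, Ddit3 and Cebpg differed little as mRNA in cardiomyocytes as a whole, while Atf5 and Cebpb differed more. Atf4 (chromosome 15) stood at 69.2 CPM in Ncx1-/-, 62.5 in Ncx1+/- and 58.0 in Ncx1+/+ cardiomyocytes, a ratio of 1.19 to Ncx1+/+ (interval 1.12 to 1.27), short of 1.5. Ddit3, which encodes the stress factor CHOP, stood at 32.9 CPM in Ncx1-/-, 28.6 in Ncx1+/- and 26.1 in Ncx1+/+, and Cebpg, a partner of ATF4, at 40.5 CPM in Ncx1-/-, 36.9 in Ncx1+/- and 39.4 in Ncx1+/+. For each of these 3 genes the libraries lay close together.
Cebpb, another partner of ATF4, stood at 19.1 CPM in Ncx1-/-, 12.8 in Ncx1+/- and 8.33 in Ncx1+/+. It was 2.29 times its Ncx1+/+ level (1.959 to 2.68) but 1.49 times its Ncx1+/- level, just under the threshold, and was called without the low-Slc8a1 nuclei. Atf5, a stress-induced relative of Atf4, was called at 9.36 CPM in Ncx1-/-, against 5.33 in Ncx1+/- and 5.36 in Ncx1+/+. Atf3, an early stress factor, was lowest in Ncx1-/- but not called, with 8.76 CPM in Ncx1-/-, 10.4 in Ncx1+/- and 10.0 in Ncx1+/+.
Ppp1r15a, which encodes the GADD34 subunit that returns eIF2 to its unphosphorylated form, stood at 16.4 CPM in Ncx1-/-, 19.4 in Ncx1+/- and 14.3 in Ncx1+/+, so that its level was highest in Ncx1+/-. Atf5 overlaps Nup62 and Cebpb overlaps Tmem189, each on the opposite strand. Nup62 stood at 7.46 CPM in Ncx1-/-, 9.58 in Ncx1+/- and 7.06 in Ncx1+/+, and Tmem189 at 10.1 CPM in Ncx1-/-, 8.55 in Ncx1+/- and 7.57 in Ncx1+/+.

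Trib3, Chac1 and Slc7a3 were near 0 in Ncx1+/+ and showed the highest ratios of the list. Trib3, which encodes a pseudokinase that feeds back on ATF4, gave 186 counts in Ncx1-/- (6.54 CPM), 37 in Ncx1+/- (1.53 CPM) and 8 in Ncx1+/+ (0.290 CPM). Trib3 was thus 22.6 times its Ncx1+/+ level (11.2 to 53.1) and 4.28 times its Ncx1+/- level (2.998 to 6.27). Chac1 gave 94 counts in Ncx1-/- (3.31 CPM), 15 in Ncx1+/- (0.619 CPM) and 1 in Ncx1+/+ (0.0362 CPM), a ratio of 91.3 to Ncx1+/+ whose interval of 16 to 3646 reflects the single count.
Slc7a3, a transporter of arginine and other cationic amino acids, gave 128 counts in Ncx1-/- (4.50 CPM), 27 in Ncx1+/- (1.11 CPM) and 12 in Ncx1+/+ (0.434 CPM). All 3 genes kept the order Ncx1-/-, Ncx1+/-, Ncx1+/+, with few molecules even in Ncx1-/-. At least 1 Trib3 UMI was found in 161 of 7250 Ncx1-/- cardiomyocyte nuclei, in 34 of 6705 of Ncx1+/- and in 8 of 7137 of Ncx1+/+. A Chac1 UMI was found in 86 of these nuclei in Ncx1-/-, 15 in Ncx1+/- and 1 in Ncx1+/+, and both together in 15 nuclei of Ncx1-/-, 3 of Ncx1+/- and 0 of Ncx1+/+. The share of nuclei with a Trib3 UMI was thus low in every library and highest in Ncx1-/-. In endocardial nuclei a Trib3 UMI was found in 38 of 1405 nuclei of Ncx1-/-, 15 of 1768 of Ncx1+/- and 9 of 1964 of Ncx1+/+, at median depths of 3490 UMIs in Ncx1-/-, 3996.5 in Ncx1+/- and 4741 in Ncx1+/+. A Chac1 UMI was found there in 5 nuclei of Ncx1-/-, 6 of Ncx1+/- and 3 of Ncx1+/+. Erythroid-like nuclei had the highest Ncx1+/+ level of Trib3 among 6 named classes, at 14.5 CPM. Erythroid markers in cardiomyocytes summed to 123 CPM in Ncx1-/-, 332 in Ncx1+/- and 275 in Ncx1+/+, and the part of erythroid RNA in the Trib3 values was not tested.

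The brakes on mTORC1, the kinase complex that couples amino acid supply to growth, were both called. Ddit4 stood at 22.2 CPM in Ncx1-/-, 11.6 in Ncx1+/- and 7.60 in Ncx1+/+, 2.92 times its Ncx1+/+ level (2.49 to 3.42). Sesn2, a leucine sensor, stood at 5.21 CPM in Ncx1-/-, 3.01 in Ncx1+/- and 2.82 in Ncx1+/+. Eif4ebp1, which encodes the translation repressor 4E-BP1 downstream of mTORC1, stood at 55.1 CPM in Ncx1-/-, 39.6 in Ncx1+/- and 28.4 in Ncx1+/+. It was 1.94 times its Ncx1+/+ level (1.78 to 2.11) and 1.39 times its Ncx1+/- level, and so was not called.

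Of the 5 carriers, 2 were called in cardiomyocytes as a whole, Slc7a3 (above) and Slc7a11. Slc7a11, the cystine carrier of system xc-, stood at 3.24 CPM in Ncx1-/-, 1.78 in Ncx1+/- and 0.978 in Ncx1+/+. Slc7a5, the large neutral amino acid carrier LAT1, stood at 28.0 CPM in Ncx1-/-, 19.4 in Ncx1+/- and 18.3 in Ncx1+/+, and Slc7a1, the main cationic carrier, at 73.4 CPM in Ncx1-/-, 56.7 in Ncx1+/- and 49.5 in Ncx1+/+. Both were highest in Ncx1-/- but less than 1.5 times their Ncx1+/- levels.
Slc3a2, the heavy chain that brings SLC7A5 and SLC7A11 to the membrane, was nearly level at 85.4 CPM in Ncx1-/-, 84.0 in Ncx1+/- and 80.0 in Ncx1+/+. Slc38a2, a sodium-coupled neutral amino acid carrier, stood at 596 CPM in Ncx1-/-, 494 in Ncx1+/- and 479 in Ncx1+/+.

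Of the 6 enzymes 1, Shmt2, was called in cardiomyocytes as a whole. Shmt2, the serine hydroxymethyltransferase of mitochondria, stood at 26.6 CPM in Ncx1-/-, 14.6 in Ncx1+/- and 10.0 in Ncx1+/+, 2.66 times its Ncx1+/+ level (2.31 to 3.06). Mthfd2, the next enzyme of the mitochondrial one-carbon route, stood at 37.1 CPM in Ncx1-/-, 29.4 in Ncx1+/- and 23.0 in Ncx1+/+, 1.62 times its Ncx1+/+ level and 1.26 times its Ncx1+/- level, and was not called. Shmt2 overlaps Ndufa4l2 on the opposite strand, and the sources used here do not say whether the counting used strand. Ndufa4l2 had the same order, at 26.7 CPM in Ncx1-/-, 5.12 in Ncx1+/- and 1.27 in Ncx1+/+, so reads of the 2 genes cannot be told apart where they overlap.
Asns, asparagine synthetase, stood at 11.7 CPM in Ncx1-/-, 8.01 in Ncx1+/- and 5.61 in Ncx1+/+, 2.09 times its Ncx1+/+ level (1.72 to 2.54) and 1.46 times its Ncx1+/- level. The 3 enzymes of serine synthesis differed less, with Phgdh at 11.2 CPM in Ncx1-/-, 9.37 in Ncx1+/- and 8.54 in Ncx1+/+, Psat1 at 7.56 CPM in Ncx1-/-, 5.99 in Ncx1+/- and 4.53 in Ncx1+/+ and Psph at 25.6 CPM in Ncx1-/-, 25.8 in Ncx1+/- and 23.4 in Ncx1+/+. None of these 4 was called in cardiomyocytes as a whole.

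Stc2 and Vldlr, which encode a secreted and a membrane protein, were both called. Stc2, known in other tissues to respond to stress of the endoplasmic reticulum, stood at 16.4 CPM in Ncx1-/-, 7.35 in Ncx1+/- and 3.55 in Ncx1+/+, 4.63 times its Ncx1+/+ level (3.72 to 5.82). Vldlr, the very low density lipoprotein receptor, stood at 53.5 CPM in Ncx1-/-, 20.7 in Ncx1+/- and 15.4 in Ncx1+/+, 3.48 times its Ncx1+/+ level (3.12 to 3.88) and 2.58 times its Ncx1+/- level (2.33 to 2.86).
None of the 7 tRNA synthetase genes was called in cardiomyocytes as a whole. Nars at 93.4 CPM in Ncx1-/-, 67.7 in Ncx1+/- and 64.3 in Ncx1+/+ and Sars at 53.6 CPM in Ncx1-/-, 36.5 in Ncx1+/- and 32.7 in Ncx1+/+ were highest in Ncx1-/-, and Gars stood at 83.6 CPM in Ncx1-/-, 74.6 in Ncx1+/- and 68.1 in Ncx1+/+. Aars at 41.4 CPM in Ncx1-/-, 46.9 in Ncx1+/- and 39.0 in Ncx1+/+, Tars at 28.5 CPM in Ncx1-/-, 24.8 in Ncx1+/- and 24.8 in Ncx1+/+ and Eprs at 139 CPM in Ncx1-/-, 138 in Ncx1+/- and 124 in Ncx1+/+ differed less. Wars, at 31.5 CPM in Ncx1-/-, 34.1 in Ncx1+/- and 32.6 in Ncx1+/+, and Atf3 were the only listed genes lower in Ncx1-/- than in both other libraries.

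**Figure D2:**
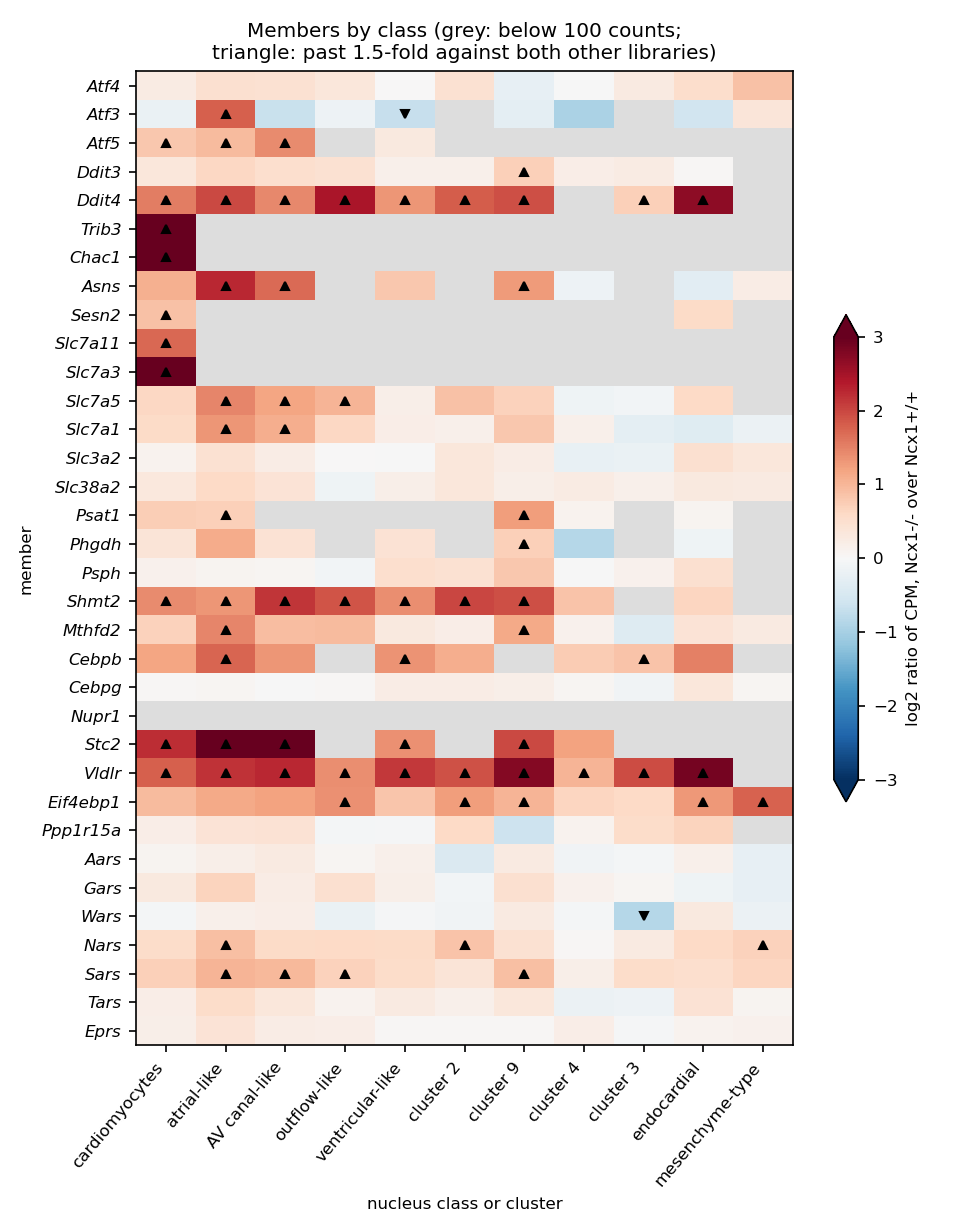
Log2 ratio of CPM, Ncx1-/- over Ncx1+/+, for each listed gene (rows) in 11 classes or clusters (columns), with a triangle where a gene was called against both other libraries and grey where it had under 100 counts. Vldlr is called in 10 of the 11 columns and Ddit4 in 9, Wars is called lower in cluster 3, and Atf3 is called higher in atrial-like and lower in ventricular-like nuclei.

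Atrial-like nuclei of the first clustering held the highest share of called genes among the chambers, a rank that 2 other clusterings did not give. The class was 1 cluster, with 1321 nuclei of Ncx1-/-, 1124 of Ncx1+/- and 1125 of Ncx1+/+, named from atrial markers such as Angpt1 and Vsnl1. The 10 atrial markers summed there to 3716 CPM in Ncx1-/-, 4245 in Ncx1+/- and 4417 in Ncx1+/+ and the 13 ventricular markers to 272 CPM in Ncx1-/-, 233 in Ncx1+/- and 239 in Ncx1+/+. Of 28 measured genes 14 were called higher and 0 lower, beside 2.75% and 3.18% of all 9917 genes measured there. The 14 were Atf3, Atf5, Ddit4, Asns, Slc7a5, Slc7a1, Psat1, Shmt2, Mthfd2, Cebpb, Stc2, Vldlr, Nars and Sars. The median log2 ratio of the 28 genes to Ncx1+/+ was 0.93, beside -0.07 for all genes. With all Ncx1+/- nuclei 21 of 28 kept the order Ncx1-/-, Ncx1+/-, Ncx1+/+, which 18.9% of all genes did. Without the low-Slc8a1 nuclei 16 of 27 were called higher and 0 lower, beside 3.28% and 3.59% of all genes. At a finer first clustering (Leiden resolution 2.0) 3 of 21 were called higher in atrial-like nuclei, beside 1.7% of all genes. There 3 of 22 were called in atrioventricular canal-like, 3 of 19 in outflow tract-like and 4 of 29 in ventricular-like nuclei. Of all genes, 2.8%, 4.0% and 4.7% were called higher in these chambers. With cardiomyocytes clustered again 2 of 21, 11 of 24, 3 of 20 and 4 of 28 were called, with the chambers in the same order. Beside them stood 1.7%, 2.7%, 4.1% and 3.2% of all genes. The median log2 ratio of the listed genes was then 0.40 in atrial-like nuclei. The 14 genes and the values that follow are thus those of the first clustering.

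Uptake of amino acids, asparagine synthesis and the one-carbon route were all represented. Slc7a1 stood at 111 CPM in Ncx1-/-, 54.8 in Ncx1+/- and 43.9 in Ncx1+/+ atrial-like nuclei, 2.52 times its Ncx1+/+ level (2.12 to 3.001). Slc7a5 stood at 48.5 CPM in Ncx1-/-, 25.2 in Ncx1+/- and 17.6 in Ncx1+/+, and Asns at 22.7 CPM in Ncx1-/-, 11.6 in Ncx1+/- and 4.72 in Ncx1+/+. Asns was 4.80 times its Ncx1+/+ level (2.94 to 8.27), and in all 3 genes the Ncx1+/- level lay nearer to Ncx1+/+ than to Ncx1-/-.
Mthfd2 stood at 62.7 CPM in Ncx1-/-, 34.1 in Ncx1+/- and 22.8 in Ncx1+/+, and Shmt2 at 32.7 CPM in Ncx1-/-, 20.4 in Ncx1+/- and 13.2 in Ncx1+/+, with Ndufa4l2 on its other strand at 38.0 CPM in Ncx1-/-, 8.33 in Ncx1+/- and 1.24 in Ncx1+/+. Stc2 stood at 19.5 CPM in Ncx1-/-, 6.82 in Ncx1+/- and 1.49 in Ncx1+/+, 13.1 times its Ncx1+/+ level (5.81 to 36.5). Nars, the asparaginyl-tRNA synthetase gene, was called at 131 CPM in Ncx1-/-, 87.1 in Ncx1+/- and 70.3 in Ncx1+/+ and Sars, the seryl-tRNA synthetase gene, at 76.1 CPM in Ncx1-/-, 48.5 in Ncx1+/- and 37.7 in Ncx1+/+.
Another 6 genes had under 100 counts in this class. Trib3 gave 72 counts in Ncx1-/-, 13 in Ncx1+/- and 0 in Ncx1+/+, at least 19.0-fold higher in Ncx1-/- than in Ncx1+/+ against a floor of 3 counts over the class, and Chac1 gave 46 counts in Ncx1-/-, 6 in Ncx1+/- and 0 in Ncx1+/+, at least 12.2-fold higher. Slc7a3 gave 49 counts in Ncx1-/-, 5 in Ncx1+/- and 2 in Ncx1+/+, and Slc7a11 gave 44 in Ncx1-/-, 15 in Ncx1+/- and 6 in Ncx1+/+. Sesn2 gave 34 in Ncx1-/-, 12 in Ncx1+/- and 7 in Ncx1+/+. Nupr1 gave 3 in Ncx1-/-, 1 in Ncx1+/- and 0 in Ncx1+/+, so that all 6 were highest in Ncx1-/-.

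In atrioventricular canal-like nuclei (1817 of Ncx1-/-, 1512 of Ncx1+/- and 1470 of Ncx1+/+) 9 of 27 measured genes were called higher and 0 lower, beside 2.28% and 2.94% of all genes, with a median log2 ratio to Ncx1+/+ of 0.49 beside -0.02. Atf5, Ddit4, Asns, Slc7a5, Slc7a1, Shmt2, Stc2, Vldlr and Sars were called. Stc2 gave 104 counts in Ncx1-/- (15.2 CPM), 29 in Ncx1+/- (5.55 CPM) and 2 in Ncx1+/+ (0.354 CPM), a ratio of 43.0 to Ncx1+/+ with an interval of 11.6 to 360. Slc7a1 was lower here than in the other chambers in every library, at 39.4 CPM in Ncx1-/-, 23.2 in Ncx1+/- and 18.4 in Ncx1+/+, but its ratio of 2.14 to Ncx1+/+ (1.70 to 2.71) was past the threshold. Without the low-Slc8a1 nuclei 10 of 26 were called higher and 0 lower, beside 3.03% and 3.67% of all genes.

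In outflow tract-like nuclei (689 of Ncx1-/-, 932 of Ncx1+/- and 966 of Ncx1+/+) 6 of 22 measured genes were called higher and 0 lower, beside 4.68% and 5.7% of all genes, and the medians were 0.40 and -0.03. Ddit4 stood at 29.7 CPM in Ncx1-/-, 10.2 in Ncx1+/- and 5.41 in Ncx1+/+, and Vldlr at 78.1 CPM in Ncx1-/-, 26.1 in Ncx1+/- and 29.5 in Ncx1+/+. Slc7a5, Shmt2, Eif4ebp1 and Sars were the other 4. Atf4 was 67.4 CPM in Ncx1-/-, 46.2 in Ncx1+/- and 53.3 in Ncx1+/+, with its lowest level in Ncx1+/-. Without the low-Slc8a1 nuclei 7 of 22 were called higher and 0 lower, beside 5.08% and 6.11% of all genes.

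Ventricular-like nuclei (1771 of Ncx1-/-, 1206 of Ncx1+/- and 1346 of Ncx1+/+) had the lowest median among the chambers of the first clustering; outflow tract-like nuclei had it at Leiden resolution 2.0 and with cardiomyocytes clustered again. Of 27 measured genes 5 were called higher and 1 lower, beside 3.3% and 1.95% of all genes, and the median log2 ratio to Ncx1+/+ was 0.26 beside -0.01. Vldlr stood at 53.0 CPM in Ncx1-/-, 16.2 in Ncx1+/- and 12.3 in Ncx1+/+, 4.33 times its Ncx1+/+ level (3.39 to 5.59). Ddit4, Shmt2, Cebpb and Stc2 were the other 4, with Stc2 at 14.9 CPM in Ncx1-/-, 9.15 in Ncx1+/- and 5.81 in Ncx1+/+. Atf4 was level, at 62.9 CPM in Ncx1-/-, 62.5 in Ncx1+/- and 62.1 in Ncx1+/+, and so was Slc3a2 at 83.7 CPM in Ncx1-/-, 80.0 in Ncx1+/- and 84.2 in Ncx1+/+. Atf3 was the gene called lower, at 6.58 CPM in Ncx1-/-, 12.5 in Ncx1+/- and 10.7 in Ncx1+/+. Without the low-Slc8a1 nuclei the same numbers of 5 and 1 were called, beside 3.99% and 2.21% of all genes.

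With the chambers of the first clustering, the ratio of Ncx1-/- to Ncx1+/+ was higher in atrial-like than in ventricular-like nuclei for 24 of the 27 genes measured in both, where that held for 42.1% of all genes. The quotient of both ratios was at least 1.5 with a counting interval above 1 for 6 of the 27, beside 2.61% of all genes, and at most 1 over 1.5 for 0, beside 5.74%. The 6 were Atf3 at 5.58 (2.98 to 10.4), Stc2 at 5.10 (2.07 to 12.6), Asns at 2.74 (1.46 to 5.16), Slc7a5 at 2.44 (1.73 to 3.44), Mthfd2 at 2.23 (1.65 to 3.03) and Slc7a1 at 2.18 (1.78 to 2.69). Vldlr, with a quotient of 1.04 (0.72 to 1.49), and Shmt2, with 0.94 (0.62 to 1.42), had like ratios in both chambers. At Leiden resolution 2.0 the ratio was higher in atrial-like nuclei for 15 of 21 genes, beside 56.6% of all genes, and the quotient was past the limit for 3, Slc7a5, Slc7a1 and Mthfd2, beside 3.63%. With cardiomyocytes clustered again it was higher for 15 of 21, beside 55.2%, and past the limit for 2, Slc7a1 and Mthfd2, beside 2.51%. The quotients of Atf3, Stc2 and Asns were thus not called in either. Both chambers come from the same 3 libraries, so these quotients compare classes within the pools and have no replicate check.

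**Figure D3:**
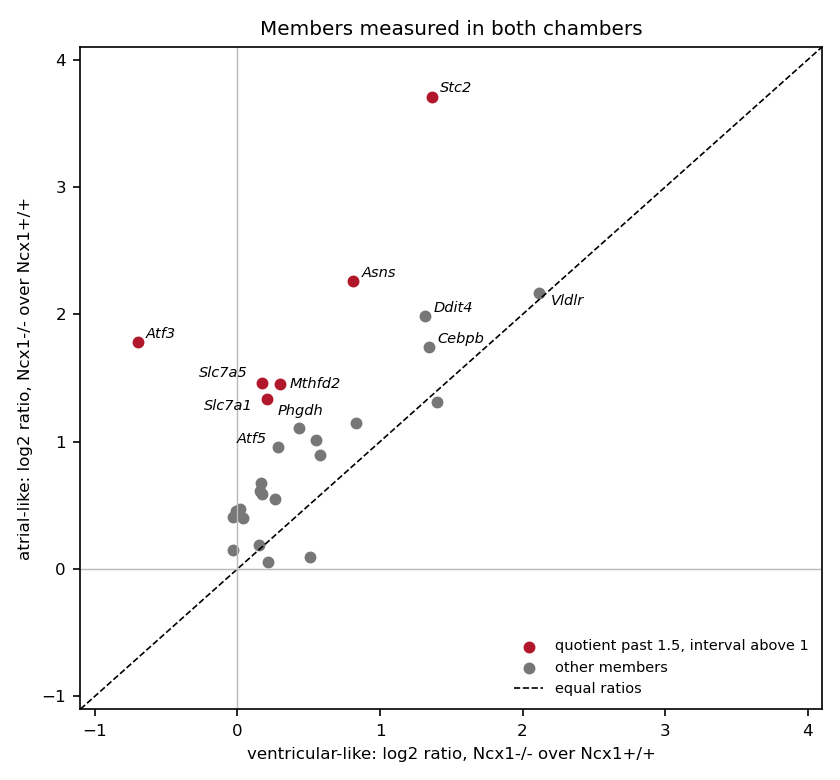
Log2 ratio of CPM, Ncx1-/- over Ncx1+/+, in atrial-like nuclei (vertical axis) against ventricular-like nuclei (horizontal axis) for the 27 genes measured in both, with the chambers of the first clustering; red points are the 6 genes whose quotient of ratios was past 1.5 with a counting interval above 1, and the dashed line marks equal ratios. Of the 27 points, 24 lie above the line, and Vldlr lies close to it.

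The atrial-like difference was not spread evenly over the atrial-like nuclei. When cardiomyocytes were clustered again, 537 of the 1321 atrial-like Ncx1-/- nuclei fell in a cluster shared by the libraries. Another 589 fell in an unshared cluster, and the rest in other clusters. As a whole the shared cluster held 567 nuclei of Ncx1-/-, 917 of Ncx1+/- and 1008 of Ncx1+/+. The unshared one held 609 nuclei of Ncx1-/-, 90 of Ncx1+/- and 2 of Ncx1+/+. In this unshared cluster Trib3 was at 24.1 CPM in Ncx1-/- and 16.4 in Ncx1+/-, Slc7a1 at 147 in Ncx1-/- and 125 in Ncx1+/-, and Mthfd2 at 86.0 in Ncx1-/- and 82.0 in Ncx1+/-. Asns stood there at 33.5 CPM in Ncx1-/- and 52.5 in Ncx1+/-. The 90 Ncx1+/- nuclei held only 304955 UMIs in all, against 2326177 in Ncx1-/-. Their values thus rest on few counts, and no direction between both libraries is read from them. In the shared cluster, Trib3 stood at 4.29 CPM in Ncx1-/-, 1.47 in Ncx1+/- and 0 in Ncx1+/+, and Slc7a1 at 82.4 CPM in Ncx1-/-, 47.1 in Ncx1+/- and 44.6 in Ncx1+/+. Asns stood in the shared cluster at 12.5 CPM in Ncx1-/-, 7.66 in Ncx1+/- and 4.80 in Ncx1+/+.
The 90 Ncx1+/- nuclei had Slc8a1 at 1777 CPM, and 98.9% of them had at least 2 Xist UMIs. Flt1, an endothelial marker, was among its 10 leading genes, and it was therefore not named. Because cardiomyocytes clustered again fell apart by library in this way, the chambers were named among the first clusters instead. Naming chambers after clustering again leaves the 609 Ncx1-/- nuclei out of the atrial-like class, which then has the 2 calls of 21 given above.

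Split by Slc8a1, the atrial-like Ncx1+/- nuclei showed both levels within 1 library. In atrial-like nuclei 234 of 1124 Ncx1+/- nuclei (20.8%, 18.5 to 23.3) were low in Slc8a1, at 1200 CPM, and the other 890 stood at 9942 CPM. Of the 28 measured genes 12 were at least 1.5 times higher in the low-Slc8a1 nuclei than in the other Ncx1+/- nuclei with an interval above 1, and 0 were lower, beside 4.49% and 3.86% of all genes. The median log2 ratio between them was 0.62, beside -0.02 for all genes. The median log2 ratio of Ncx1-/- over the low-Slc8a1 nuclei was 0.02, and that of the other Ncx1+/- nuclei over Ncx1+/+ was 0.22.
Slc7a1 stood at 111 CPM in Ncx1-/-, 95.4 in low-Slc8a1 and 45.7 in other Ncx1+/- nuclei, and 43.9 in Ncx1+/+. Vldlr stood at 70.3 CPM in Ncx1-/-, 82.9 in low-Slc8a1 and 17.3 in other Ncx1+/- nuclei, and 15.6 in Ncx1+/+. Asns stood at 22.7 CPM in Ncx1-/-, 31.8 in low-Slc8a1 and 7.10 in other Ncx1+/- nuclei, and 4.72 in Ncx1+/+. Trib3, known for its feedback on ATF4, gave 72 counts in Ncx1-/-, 9 in low-Slc8a1 and 4 in other Ncx1+/- nuclei, and 0 in Ncx1+/+. In each of these 4 genes the low-Slc8a1 nuclei lay with Ncx1-/- and the other Ncx1+/- nuclei with Ncx1+/+.

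Over the split cardiomyocyte clusters, 15 of 33 genes were higher and 0 lower in the low-Slc8a1 nuclei than in the other Ncx1+/- nuclei, beside 4.96% and 2.3% of all genes. Trib3 stood at 6.62 CPM in Ncx1-/-, 4.79 in low-Slc8a1 and 0.940 in other Ncx1+/- nuclei, and 0.332 in Ncx1+/+. Stc2 stood at 16.4 CPM in Ncx1-/-, 18.6 in low-Slc8a1 and 4.98 in other Ncx1+/- nuclei, and 3.57 in Ncx1+/+. Ddit4 stood at 21.6 CPM in Ncx1-/-, 22.6 in low-Slc8a1 and 9.07 in other Ncx1+/- nuclei, and 6.60 in Ncx1+/+. In ventricular-like nuclei 8 of 27 genes were higher and 0 lower, beside 5.78% and 3.43% of all genes. In atrioventricular canal-like nuclei these were 6 of 27 and 0, beside 3.95% and 4.36%, and in outflow tract-like nuclei 7 of 22 and 0, beside 4.74% and 3.08%. Cluster 4, which fitted no chamber, did not share this: 2 of 26 genes were higher there, Vldlr and Sars, and 2 lower, Nars and Atf3, beside 3.74% and 2.13% of all genes. The median log2 ratio between its low-Slc8a1 and other Ncx1+/- nuclei was 0.02, and Atf3 rested there on 1 count in the low-Slc8a1 nuclei.
The low-Slc8a1 nuclei differ from the other Ncx1+/- nuclei in Xist and in depth as well, and the part of either in these ratios was not tested. Hypoxia reference genes ran the same way: 9 of 20 were higher and 0 lower in the low-Slc8a1 atrial-like nuclei, with a median log2 ratio of 0.54.

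**Figure D4:**
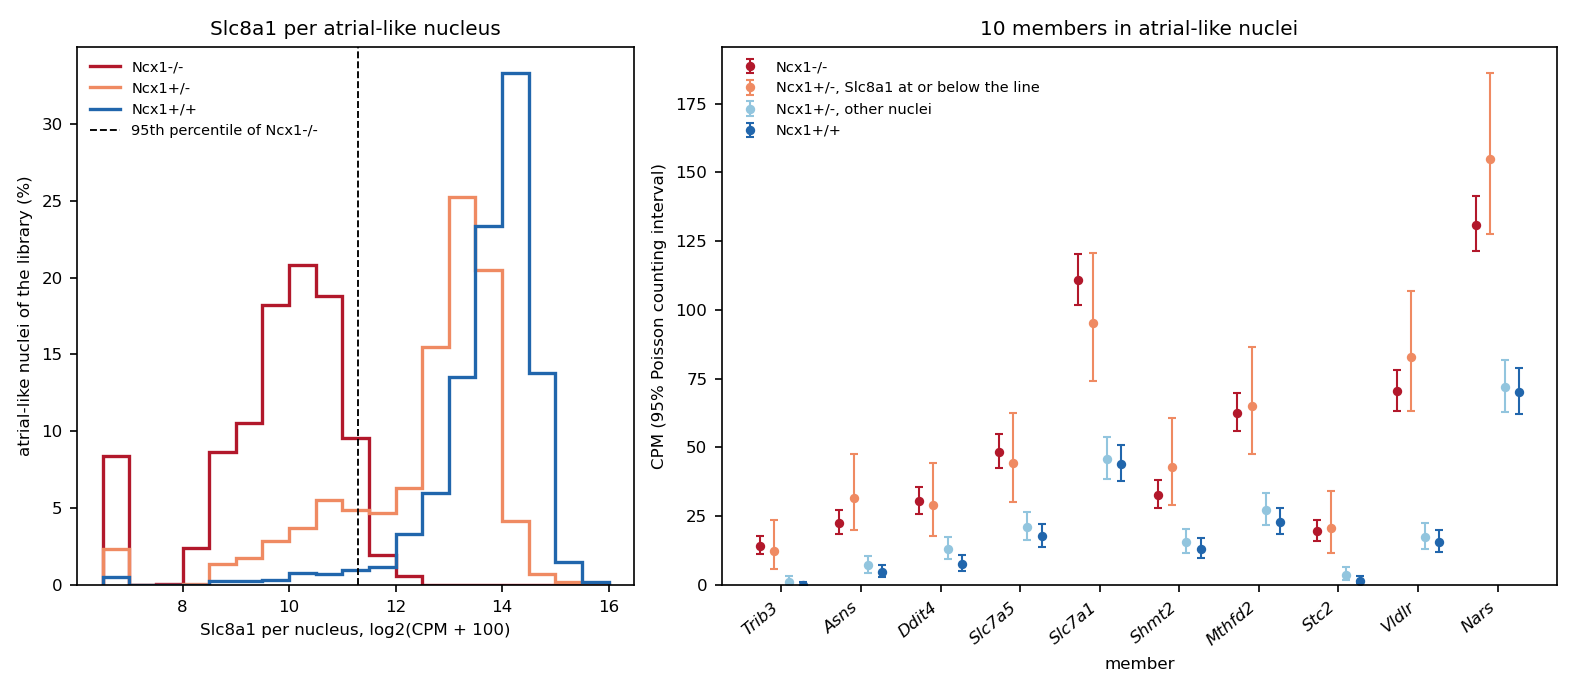
Left, share of the atrial-like nuclei of each library (%) by Slc8a1 level per nucleus, log2(CPM + 100), with the 95th percentile of Ncx1-/- nuclei as a dashed line; right, levels in CPM of 10 genes in Ncx1-/- nuclei, low-Slc8a1 and other Ncx1+/- nuclei and Ncx1+/+ nuclei, with 95% Poisson counting intervals. Vldlr is at 70.3 CPM in Ncx1-/-, 82.9 in low-Slc8a1 and 17.3 in other Ncx1+/- nuclei, and 15.6 in Ncx1+/+.

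Clusters 2 and 9 expressed cardiomyocyte markers but were held out of the class because Fgf10, a marker of pharyngeal mesoderm, was among their leading genes. In cluster 9 (428 nuclei of Ncx1-/-, 865 of Ncx1+/- and 1039 of Ncx1+/+) 11 of 26 measured genes were called higher and 0 lower, beside 3.45% and 3.18% of all genes. Slc7a1 stood there at 144 CPM in Ncx1-/-, 102 in Ncx1+/- and 82.5 in Ncx1+/+, and Mthfd2 at 76.9 CPM in Ncx1-/-, 45.5 in Ncx1+/- and 34.8 in Ncx1+/+. In cluster 2 (1025 nuclei of Ncx1-/-, 580 of Ncx1+/- and 624 of Ncx1+/+) 5 of 22 were called higher and 0 lower, beside 4.51% and 4.29%, and Stc2 gave 73 counts in Ncx1-/-, 8 in Ncx1+/- and 0 in Ncx1+/+. Cardiomyocyte cluster 4 (1020 nuclei of Ncx1-/-, 1001 of Ncx1+/- and 1002 of Ncx1+/+), which fitted no chamber, had 1 of 26 called higher and 0 lower, beside 1.85% and 0.919% of all genes. That 1 was Vldlr, at 34.2 CPM in Ncx1-/-, 15.02 in Ncx1+/- and 16.98 in Ncx1+/+. With the low-Slc8a1 nuclei left out, 1 of 25 was called higher there, Vldlr, and 1 lower, Atf3, beside 2.1% and 1.03% of all genes. In cluster 3 (628 nuclei of Ncx1-/-, 750 of Ncx1+/- and 934 of Ncx1+/+), also without a chamber and with a median of 2261 UMIs, 3 of 21 were called higher, Ddit4, Cebpb and Vldlr, and 1 lower, Wars, beside 1.91% and 1.8% of all genes.

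In endocardial nuclei Ddit4 and Vldlr stood apart as well. Of 27 measured genes 3 were called higher and 0 lower, beside 6.97% and 4.16% of all genes in 1405 nuclei of Ncx1-/-, 1768 of Ncx1+/- and 1964 of Ncx1+/+, so the share of the list was near the background. Ddit4 stood at 36.3 CPM in Ncx1-/-, 7.99 in Ncx1+/- and 5.69 in Ncx1+/+, 6.39 times its Ncx1+/+ level (4.73 to 8.76). Vldlr stood at 22.3 CPM in Ncx1-/-, 4.93 in Ncx1+/- and 3.05 in Ncx1+/+, and Eif4ebp1 at 46.3 CPM in Ncx1-/-, 24.9 in Ncx1+/- and 18.7 in Ncx1+/+. The median log2 ratio of the 27 genes was 0.43, beside 0.10 for all genes, and 18 kept the order Ncx1-/-, Ncx1+/-, Ncx1+/+, beside 36.4% of all genes. With TMM or median-of-ratios scaling the median of all genes was 0.01 or 0.00 in place of 0.10.

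Asns and Slc7a1 ran in the opposite order in endocardial nuclei to that in cardiomyocytes as a whole. Atf3 was lowest in Ncx1-/- in both. Asns stood at 17.5 CPM in Ncx1-/-, 21.1 in Ncx1+/- and 21.9 in Ncx1+/+, Slc7a1 at 71.7 CPM in Ncx1-/-, 84.9 in Ncx1+/- and 92.7 in Ncx1+/+, and Atf3 at 20.1 CPM in Ncx1-/-, 26.5 in Ncx1+/- and 29.9 in Ncx1+/+. None of these was called. The ratio of Ncx1-/- to Ncx1+/+ was past 1.5 times higher in cardiomyocytes than in endocardial nuclei, with an interval above 1, for Asns at 2.61 (1.92 to 3.55), Slc7a1 at 1.92 (1.67 to 2.20), Shmt2 at 1.70 (1.26 to 2.30) and Psat1 at 1.57 (1.04 to 2.37), which is 4 of 27, beside 4.36% of all genes. It was past that limit the other way for Ddit4 at 0.46 (0.33 to 0.64) and Vldlr at 0.47 (0.31 to 0.72), beside 12.1% of all genes. Trib3 gave 38 counts in Ncx1-/-, 15 in Ncx1+/- and 9 in Ncx1+/+ in endocardial nuclei, and Stc2 37 in Ncx1-/-, 11 in Ncx1+/- and 5 in Ncx1+/+.
Cardiomyocyte markers summed in endocardial nuclei to 13.7% of their cardiomyocyte level in Ncx1-/-, 11.2% in Ncx1+/- and 10.4% in Ncx1+/+, and the part of this RNA in the endocardial values was not tested. Ribosomal protein genes took 1.48% of endocardial UMIs in Ncx1-/-, 1.02% in Ncx1+/- and 0.786% in Ncx1+/+. Slc8a1 was too low per endocardial nucleus, at 17.5 CPM in Ncx1-/-, 101 in Ncx1+/- and 201 in Ncx1+/+, for the nuclei to be split by it. With endocardial sub-clusters 2 and 11 left out, which held mostly Ncx1-/- nuclei, the same 3 genes were called. Other endocardial sub-clusters were unevenly shared as well. Sub-cluster 1 held 445 nuclei of Ncx1-/-, 148 of Ncx1+/- and 68 of Ncx1+/+, and sub-cluster 9 held 8, 191 and 364. The endocardial ratios and quotients thus compare unlike mixtures of nuclei, and the part of this in them was not tested.

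In the other classes few genes could be measured. Mesenchyme-type nuclei (189 of Ncx1-/-, 366 of Ncx1+/- and 534 of Ncx1+/+) had 2 of 16 called higher, Eif4ebp1 at 51.9 CPM in Ncx1-/-, 20.9 in Ncx1+/- and 15.2 in Ncx1+/+ and Nars at 91.4 CPM in Ncx1-/-, 59.0 in Ncx1+/- and 56.9 in Ncx1+/+, and 0 lower, beside 6.02% and 4.8% of all genes. Epicardial-like nuclei (229 of Ncx1-/-, 30 of Ncx1+/- and 180 of Ncx1+/+) had 1 of 6 called higher, Slc7a1, and 0 lower, beside 1.49% and 1.66%, from only 30 Ncx1+/- nuclei. In erythroid-like nuclei (99 of Ncx1-/-, 468 of Ncx1+/- and 503 of Ncx1+/+), the embryonic red cell lineage, 0 of 16 were called in either direction, beside 4.98% higher and 6.57% lower of all genes, and Ncx1-/- gave only 99 nuclei there. Erythroid-like nuclei nevertheless had the highest Ncx1+/+ level among 6 named classes for 25 of the 34 genes. Asns stood there at 75.3 CPM in Ncx1+/+, against 4.72 in atrial-like nuclei, and Mthfd2 at 138 against 22.8 CPM. Cluster 15, an unnamed cluster led by Ppp2r2b and Bnc2, had 0 of 5 called higher and 1 lower, Nars, beside 0.488% and 0.651% of all genes. Cluster 17, unnamed and of high depth, had 0 of 9 called higher and 1 lower, Slc7a1, beside 0.832% and 0.771%. In cluster 14, led by mitochondrial RNA, 0 of 8 were called either way, beside 2.77% and 4.69%, and in cardiomyocyte cluster 16, which held only 4 Ncx1-/- nuclei, 0 of 5, beside 2.14% and 0.845%.

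The remaining genes of the pathway, taken from fixed lists, had few calls. The 16 genes of the eIF2 kinases and of eIF2 control had 0 called in either direction in cardiomyocytes and a median log2 ratio to Ncx1+/+ of -0.16. Eif2ak1, the haem-regulated kinase, stood at 20.3 CPM in Ncx1-/-, 24.4 in Ncx1+/- and 25.4 in Ncx1+/+. Eif2ak2, which senses double-stranded RNA, stood at 17.7 CPM in Ncx1-/-, 20.6 in Ncx1+/- and 20.2 in Ncx1+/+. Eif2ak3, which senses unfolded protein, stood at 30.9 CPM in Ncx1-/-, 36.7 in Ncx1+/- and 34.6 in Ncx1+/+, and Eif2ak4, which senses uncharged tRNA, at 58.1 CPM in Ncx1-/-, 53.3 in Ncx1+/- and 58.2 in Ncx1+/+. None of the kinase genes was higher in Ncx1-/- than in both other libraries.
The 20 genes of the unfolded protein response, the 20 other tRNA synthetases, the 17 genes of mTORC1 and amino acid sensing and the 10 measured genes of mitochondrial stress likewise had 0 called in cardiomyocytes, with medians of -0.08, 0.02, -0.08 and -0.02. Among 17 other amino acid transporters 1 was called higher, Slc38a3, a glutamine carrier, at 2.92 CPM in Ncx1-/-, 1.03 in Ncx1+/- and 0.98 in Ncx1+/+.

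The other serine, one-carbon, proline and transsulfuration enzymes had 5 of 17 called higher and 0 lower in cardiomyocytes, with a median of 0.03. Gpt2, the mitochondrial alanine transaminase, stood at 10.2 CPM in Ncx1-/-, 4.66 in Ncx1+/- and 3.40 in Ncx1+/+. Cth, which makes cysteine, stood at 7.78 CPM in Ncx1-/-, 3.63 in Ncx1+/- and 3.19 in Ncx1+/+, and Aldh1l2, a mitochondrial folate enzyme, at 14.7 CPM in Ncx1-/-, 8.34 in Ncx1+/- and 5.00 in Ncx1+/+. Pycr1, an enzyme of proline synthesis, and Mthfd1l, of the mitochondrial one-carbon route, were the other two. All 5 were highest in Ncx1-/-.
Among other CARE-binding and partner factors 0 of 11 were called higher and 2 lower. Fos stood at 16.4 CPM in Ncx1-/-, 61.7 in Ncx1+/- and 43.3 in Ncx1+/+ and Jun at 46.3 CPM in Ncx1-/-, 80.6 in Ncx1+/- and 80.0 in Ncx1+/+, and both are immediate early genes whose products can pair with ATF proteins. In atrial-like nuclei 4 of 18 other tRNA synthetases were called higher (Cars, Lars, Mars and Yars, named here after their values were seen), and the medians of the eIF2 list and the unfolded protein list were -0.09 and -0.09.
In endocardial nuclei 3 of the 118 measured genes of these 8 lists were called higher and 2 lower, beside 6.97% and 4.16% of all genes, so their share was not above the background. Xbp1, a transcription factor of the unfolded protein response, stood at 63.6 CPM in Ncx1-/-, 41.7 in Ncx1+/- and 37.2 in Ncx1+/+. Lonp1, a protease of mitochondria, stood at 37.4 CPM in Ncx1-/-, 21.3 in Ncx1+/- and 19.6 in Ncx1+/+, and Rragb, a GTPase of amino acid sensing, at 11.8 CPM in Ncx1-/-, 7.46 in Ncx1+/- and 6.80 in Ncx1+/+. Sesn3, a relative of Sesn2, was lower at 59.6 CPM in Ncx1-/-, 93.0 in Ncx1+/- and 103 in Ncx1+/+, and so was Gldc, of glycine breakdown, at 41.5 CPM in Ncx1-/-, 69.0 in Ncx1+/- and 76.0 in Ncx1+/+.

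Hypoxia reference genes differed in the same libraries and classes, and their part in the values of the listed genes was not tested. In cardiomyocytes 10 of 20 were called higher, with a median of 0.82. Egln3, an oxygen-sensing hydroxylase, stood at 16.96 CPM in Ncx1-/-, 6.44 in Ncx1+/- and 3.29 in Ncx1+/+, and Bnip3, a mitophagy receptor, at 185 CPM in Ncx1-/-, 87.6 in Ncx1+/- and 71.2 in Ncx1+/+. With the chambers of the first clustering, 11 of 20 were called in atrial-like nuclei, with a median of 0.86, and 11 of 20 in ventricular-like nuclei, with 0.81. The medians of the listed genes were 0.93 and 0.26 there, but these changed with the clustering, as given above. Hypoxia medians under the other clusterings are not given here. With the low-Slc8a1 nuclei left out, 10 of 20 were called in cardiomyocytes, 11 in atrial-like and 13 in ventricular-like nuclei. In endocardial nuclei 19 of 20 were called, with a median of 1.89, where that of the listed genes was 0.43. Adm, a vasodilator peptide gene, stood there at 16.6 CPM in Ncx1-/-, 2.40 in Ncx1+/- and 1.12 in Ncx1+/+. Ribosomal protein genes, as a gauge of cytoplasmic RNA, had medians of 0.27 in cardiomyocytes and 0.91 in endocardial nuclei.

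**Figure D5:**
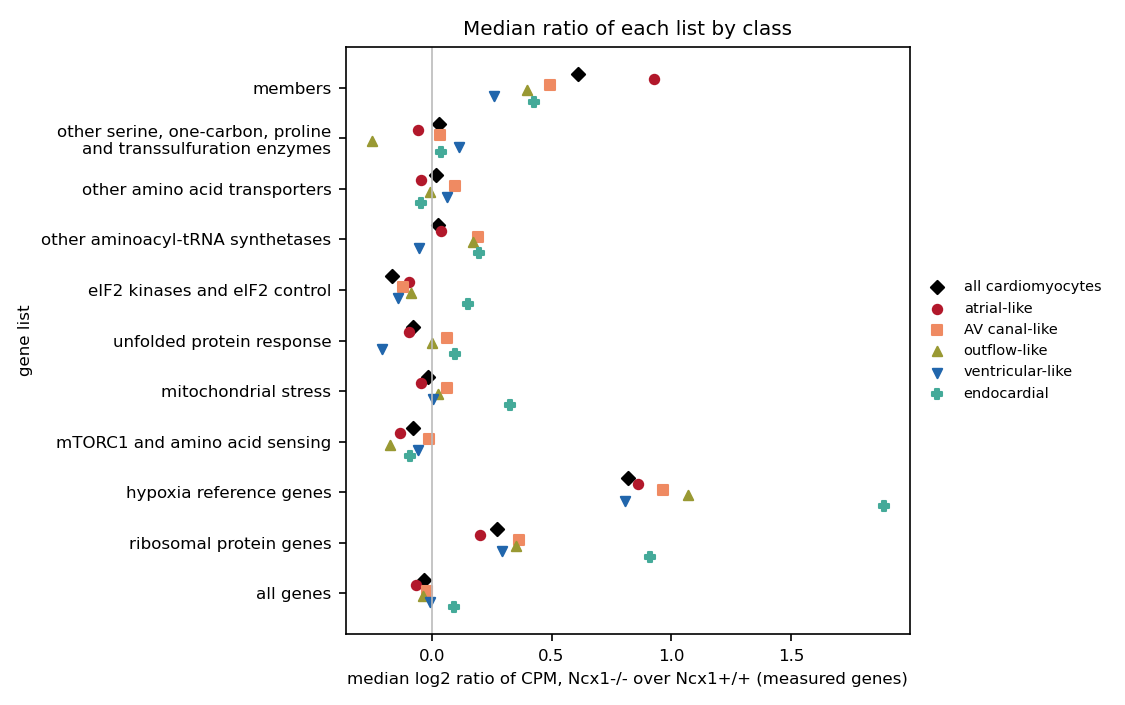
Median log2 ratio of CPM, Ncx1-/- over Ncx1+/+, of the measured genes of each list (rows) in all cardiomyocytes, 4 chamber classes of the first clustering and endocardial nuclei (symbols), with all measured genes in the bottom row. The listed stress-response genes (top row) have their highest median in atrial-like nuclei at 0.93 and their lowest in ventricular-like nuclei at 0.26, whereas the hypoxia genes have theirs in endocardial nuclei at 1.89.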

How the data were processed

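The authors deposited raw UMI counts per gene and nucleus for 1 10x Genomics library (chemistry 3.1) per genotype. Alignment to mm10 and counting with Cell Ranger 6.1.0 are named in the submitters' processing notes, while the deposited file header names version 9.0.0. Total UMIs were 52985283 in Ncx1-/-, 49022310 in Ncx1+/- and 59898298 in Ncx1+/+. The sources used here do not say whether introns were counted or strand was used.

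Barcodes passed with 500 or more genes and no more than 5% mitochondrial UMIs, and the top 8% of Scrublet scores in each library were removed, since its automatic threshold called 0 barcodes in Ncx1-/-. Counts were scaled to 10000, log-transformed and clustered (scanpy 1.11.5) on 2000 variable genes without the listed and pathway genes, 30 components, 15 neighbours and Leiden resolution 1.0, with no correction between libraries. Classes were named from marker lists. Chambers were to be named after clustering cardiomyocytes again, but those clusters separated by library, so first-round clusters were named instead.

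Counts were summed per class and library and scaled to CPM of the class total. Levels carry 95% exact Poisson intervals, ratios exact conditional intervals (scipy 1.17.1), and the quotient of ratios a log-scale interval from the counts. The calling rule alone recovered known changes in simulated sums drawn with counting error only. That simulation held no variation between hearts or libraries and did not cover clustering, class naming or the quotient of ratios. The listed genes may all be named, and of the other lists at most 4 called genes per list and class, by the smaller ratio, plus Eif2ak1 to Eif2ak4. The listed genes, lists and thresholds were chosen with earlier results of these data known. Alternatives used TMM factors (edgeR 4.0.16), median-of-ratios factors (DESeq2 1.42.0), other filters and other clusterings. The split by Slc8a1 was chosen after seeing the data.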

Additional observations from a re-analysis of the deposited data

Results flagged for a closer look

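Atf3, an early stress transcription factor, ran in opposite directions in 2 chambers of the same libraries. Its log2 ratio to Ncx1+/+ was 1.78 in atrial-like nuclei, at 15.4 CPM in Ncx1-/-, 7.83 in Ncx1+/- and 4.47 in Ncx1+/+. In ventricular-like nuclei it was -0.70, at 6.58 CPM in Ncx1-/-, 12.5 in Ncx1+/- and 10.7 in Ncx1+/+. At Leiden resolution 2.0 and with cardiomyocytes clustered again Atf3 was under 100 counts in atrial-like nuclei, and its log2 ratio was 1.03 in both. The difference was not tested, because each genotype is 1 library, and the quotient of 5.58 with its interval of 2.98 to 10.4 covers counting error only.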

How the results depend on the processing

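The 10 genes called higher in cardiomyocytes were all called with TMM factors, with median-of-ratios factors, with totals without mitochondrial, ribosomal protein, haemoglobin and Malat1 counts, and without the low-Slc8a1 nuclei, each of which gave 13 or 14 calls. A minimum of 300 counts left 5 called in cardiomyocytes, 7 in atrial-like, 4 in atrioventricular canal-like, 3 in outflow tract-like and 3 higher with 0 lower in ventricular-like nuclei. A fold of 2 left 5, 3, 4, 3 and 2 with 0 lower in these classes. Leiden resolution 2.0 left 3 in each of atrial-like, atrioventricular canal-like and outflow tract-like nuclei. Clustering cardiomyocytes again left 2 in atrial-like and 3 in outflow tract-like nuclei, and Atf5 there had a log2 ratio of -0.10 in atrial-like nuclei from under 100 counts. With all genes allowed among the variable genes 3 were called higher and 0 lower in ventricular-like nuclei. With no count minimum 14 were called in outflow tract-like and 5 in endocardial nuclei, and the medians were 0.69 in outflow tract-like and 0.93 in atrioventricular canal-like nuclei. Weighting the chambers as in Ncx1+/+ gave a cardiomyocyte median of 0.80. The quotient of atrial-like over ventricular-like ratios was called for 3 genes and above 1 for 15 at Leiden resolution 2.0, and for 2 and 15 with cardiomyocytes clustered again, in place of 6 and 24; these alternatives were chosen after seeing the data. The causes of these changes were not tested. The other 213 counts and medians under the alternatives stayed within the limits set for them. Of 641 values of single listed genes 531 kept their direction and call, 109 kept the direction and lost the call, and the 1 of Atf5 changed direction.

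Among calls over all genes the share called higher moved with the scaling. In atrial-like nuclei it was 46.4% as reported and 61.0%, 60.9% and 61.4% with TMM, median-of-ratios and the reduced totals. In endocardial nuclei it was 62.6% as reported and 49.6% and 49.1% with TMM and median-of-ratios. With the reduced totals it was 65.7% in place of 54.4% in cardiomyocytes, 56.6% in place of 43.7% in atrioventricular canal-like, 58.7% in place of 45.1% in outflow tract-like and 75.2% in place of 62.9% in ventricular-like nuclei. No paired analysis was possible because each genotype is 1 library and the labels number no replicates. Depth limits Trib3, Chac1, Slc7a3, Slc7a11 and Sesn2, which had under 100 counts in atrial-like nuclei, and Nupr1, which had 5 counts in all cardiomyocytes.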

Other observations

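Between the named classes the listed genes had an order of level that no comparison of genotypes uses. Slc7a1 stood in Ncx1+/+ at 218 CPM in erythroid-like, 92.7 in endocardial, 69.9 in ventricular-like, 43.9 in atrial-like and 18.4 in atrioventricular canal-like nuclei. Stc2 stood in Ncx1-/- at 14.9 CPM in ventricular-like, 19.5 in atrial-like and 15.2 in atrioventricular canal-like nuclei, and in Ncx1+/+ at 5.81, 1.49 and 0.354 CPM in these chambers. In outflow tract-like nuclei, where it had under 100 counts in all, Stc2 gave 62 counts in Ncx1-/- and 17 in Ncx1+/+.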
